A study of Homo sapiens with 9 samples.

Results

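The fatty acid elongases ELOVL1 to ELOVL7 were followed in the established human glioblastoma line LN229 during 24 h of exposure to formate. The 7 genes were taken by symbol from a table of raw counts for 23727 genes. All 7 were found, and all 7 were among the 15273 genes with enough counts to be tested. The untreated group was collected at 0 h, and the other groups had received 500 µM sodium formate for 8 h or 24 h. Each group held 3 libraries, numbered as replicates 1 to 3. Every group shared the same medium, with glucose at 17 mM, glutamine at 2 mM and serum at 10%, and carried no other stated agent or genetic change. Untreated libraries of 8 h or 24 h were not analysed here, so exposure to formate and time in culture cannot be told apart. The source label writes the line as LN299, while the growth protocol and the series title write LN229, which is used here.

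Elongases sit in the membrane of the endoplasmic reticulum and lengthen fatty acids by adding carbon from malonyl-CoA to an activated chain. The condensation they carry out is the first reaction of the elongation cycle, and the later reactions are shared by all family members. ELOVL5 and ELOVL2 act on polyunsaturated chains, ELOVL5 on the shorter and ELOVL2 on the longer ones. ELOVL1, ELOVL3, ELOVL6 and ELOVL7 act on saturated and monounsaturated chains: ELOVL6 turns palmitate into stearate, and ELOVL1 makes the very long chains used in sphingolipids. ELOVL4 makes ultra-long chains and is known from retina, skin and brain. In the brain, long polyunsaturated chains enter the phospholipids of membranes, and very long saturated chains enter the sphingolipids of myelin.

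On GRCh38 with GENCODE release 29, ELOVL1 (ENSG00000066322) lies on the minus strand of chromosome 1, from 43363397 to 43368074. Another 3 family members share chromosome 6, all on the minus strand: ELOVL2 (ENSG00000197977) from 10980759 to 11044314, ELOVL5 (ENSG00000012660) from 53267398 to 53349179, and ELOVL4 (ENSG00000118402) from 79914812 to 79947580. ELOVL3 (ENSG00000119915) is the only member on a plus strand, on chromosome 10 from 102226328 to 102229589. ELOVL6 (ENSG00000170522) lies on the minus strand of chromosome 4, from 110045846 to 110199199, and ELOVL7 (ENSG00000164181) on the minus strand of chromosome 5, from 60751791 to 60844389. No exon of the 7 genes overlapped an exon on the opposite strand, and no pseudogene in that annotation carried a name derived from theirs. In ELOVL1, 2.71% of the exon bases overlapped a microRNA gene on the same strand.

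The stretches just upstream of ELOVL1, ELOVL2 and ELOVL7 are shown because ELOVL1 was the single member whose 24 h libraries all lay below those of 0 h, while ELOVL2 and ELOVL7 had the largest fitted rises among the 7. They come from RefSeq promoter windows on GRCh38.p14 (250 bases before to 50 after the start), cut where the first exon of a protein-coding gene begins. All 3 are written 5′ to 3′ on the minus strand, from chr1:43368075-43368261 for ELOVL1, chr6:11044315-11044555 for ELOVL2 and chr5:60844390-60844519 for ELOVL7. The ELOVL2 window also holds an exon of ELOVL2-AS1, an RNA gene. Capitals mark GC boxes (GGGCGG, or CCGCCC where the match is on the other strand).
ELOVL1: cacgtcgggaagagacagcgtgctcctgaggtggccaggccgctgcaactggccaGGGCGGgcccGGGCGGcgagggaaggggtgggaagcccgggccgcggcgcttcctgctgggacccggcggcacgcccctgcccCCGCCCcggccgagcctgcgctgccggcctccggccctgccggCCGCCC
ELOVL2: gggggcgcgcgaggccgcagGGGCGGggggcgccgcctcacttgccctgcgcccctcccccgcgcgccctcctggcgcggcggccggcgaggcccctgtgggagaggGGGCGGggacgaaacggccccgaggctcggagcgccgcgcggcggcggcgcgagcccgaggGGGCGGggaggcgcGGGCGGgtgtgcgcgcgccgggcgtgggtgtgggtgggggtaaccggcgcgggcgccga
ELOVL7: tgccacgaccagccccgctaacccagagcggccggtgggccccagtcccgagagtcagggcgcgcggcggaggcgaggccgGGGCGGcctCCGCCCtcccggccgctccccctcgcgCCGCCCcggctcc

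RefSeq windows were found for all 7 genes. Searched on both strands over the whole window, GC boxes numbered 5 in ELOVL1, 6 in ELOVL2, 3 in ELOVL3, 4 in ELOVL4, 0 in ELOVL5, 1 in ELOVL6 and 4 in ELOVL7, and 45.0% of 35116 promoter windows held at least 1. The CCAAT box (CCAAT) was found in ELOVL1, ELOVL3, ELOVL4 and ELOVL5, against 34.6% of windows, and the E-box (CACGTG) in ELOVL4 and ELOVL5, against 7.26%. A form of the sterol regulatory element (TCACNCCAC) was found in 0 of the 7 windows and in 1.13% of all windows. Each motif was counted on its own, and matches of different motifs could share letters. GC content of the windows ran from 57.3% in ELOVL5 and ELOVL6 to 83.7% in ELOVL2. A motif match describes the letters of these windows only.

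Total counts lay between 22222298 and 25848242 per library, and 20719 to 21354 genes had at least 1 count. In the smallest library, 3 counts, the limit that a count of 0 allows, corresponded to 0.135 CPM, the unit of counts scaled to a common library size. The line expressed the glioma-associated genes VIM (means of 4899, 4528 and 3551 CPM at 0 h, 8 h and 24 h), CD44 (999, 989 and 769 CPM) and NES (948, 944 and 962 CPM). GFAP, which defines mature astrocytes, was near 0 at 0.233, 0.290 and 0.224 CPM. Of the same list, SOX2 had means of 79.9, 87.8 and 69.4 CPM, and SOX9 was low at 0.759, 0.754 and 0.974 CPM. In all, 7 of the 8 listed glioma and astrocyte genes were in the table. Leukocyte and microglial markers summed to at most 0.354 CPM in any library, with 3 of 4 listed genes in the table. Replicate 1 stood apart from replicates 2 and 3 at 0 h and at 8 h in several elongases, and its values are given separately below. The difference was not limited to elongases. In replicate 1 of 0 h and 8 h, the 50 most abundant genes held 12.7% and 12.3% of counts, against 11.1% to 11.3% in replicates 2 and 3. There, 20719 and 20734 genes had at least 1 count, against 20941 to 21311 in replicates 2 and 3 of these times. Because these are bulk libraries, fewer cells of a type and less RNA per cell cannot be told apart. The labels do not say whether replicates came from separate cultures, so p-values measure the spread between these samples, which may be technical.

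Per base of annotated exon, ELOVL5 had the highest mean of the family in each group and ELOVL1 the second. Levels that can be compared between genes were expressed as FPKM, here CPM divided by the kilobases of annotated exon. At 0 h, ELOVL5 stood at 58.6 ± 6.59 FPKM (SD, n = 3, as for all means below) and ELOVL1 at 47.2 ± 10.7. The middle of the family was formed by ELOVL2 at 8.15 ± 1.62, ELOVL4 at 6.91 ± 0.209 and ELOVL6 at 6.42 ± 0.261 FPKM. ELOVL3 at 0.425 ± 0.0465 and ELOVL7 at 0.380 ± 0.113 FPKM were the lowest, both detected in every library. In that order, ELOVL5 and ELOVL1 overlapped at 0 h only, as did ELOVL2 and ELOVL4. ELOVL4 and ELOVL6 overlapped in all 3 groups, and so did ELOVL3 and ELOVL7. ELOVL1 did not overlap with ELOVL2 in any group, nor ELOVL6 with ELOVL3.

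At 24 h the levels were 68.0 ± 1.69 FPKM for ELOVL5, 33.5 ± 4.13 for ELOVL1 and 13.1 ± 1.66 for ELOVL2. ELOVL6 stood at 7.87 ± 0.400 and ELOVL4 at 7.50 ± 1.16 FPKM, and ELOVL7 at 0.669 ± 0.131 and ELOVL3 at 0.636 ± 0.235, so both of these neighbouring pairs had changed places within their spread. Using the longest protein-coding transcript as the length in place of all exons also swapped these pairs in the mean over all 9 libraries. In that mean ELOVL5 stood at 76.7 FPKM and ELOVL1 at 64.6. At 0 h, the order of ELOVL5 and ELOVL1 depended on the length used.

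Of the elongases of polyunsaturated chains, ELOVL2 passed the test at 24 h against 0 h and ELOVL5 did not. In CPM, ELOVL2 stood at 25.5, 38.2 and 34.0 in replicates 1, 2 and 3 at 0 h. The values at 8 h were 30.6, 37.1 and 34.7, and at 24 h they were 44.7, 56.7 and 55.6. All 3 libraries of 24 h lay above all 6 earlier ones, and replicate 1 was the lowest in each group. The means were 32.6 ± 6.49 CPM untreated and 52.3 ± 6.65 CPM after 24 h, a fitted 1.61-fold rise (log2 fold change 0.68, SE 0.15). Its adjusted p was 0.0349 by the quasi-likelihood test of edgeR, adjusted over all tested genes after Benjamini and Hochberg, and 0.000458 with the replicate number as a block. Without the block, the adjusted p was above 0.05 in 5 of the 9 fits that each left out 1 library: 0.0510 and 0.0534 when replicates 1 and 3 of 0 h were left out, 0.0610 for replicate 3 of 8 h, and 0.158 and 0.173 for replicates 2 and 3 of 24 h. All 9 such fits stayed under 0.05 when blocked. A fit of only the 6 libraries compared gave 0.0735.

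ELOVL5, which acts on polyunsaturated chains ahead of ELOVL2, had 195, 234 and 242 CPM at 0 h. It had 207, 233 and 238 CPM at 8 h and 259, 266 and 253 CPM at 24 h. The 24 h libraries were again above all earlier ones, but by a smaller margin. The fitted log2 fold change at 24 h was 0.21 (SE 0.11), with an adjusted p of 0.228 by edgeR, and 0.0793 with the replicate block. Within replicate numbers the log2 differences were 0.41, 0.18 and 0.07 for replicates 1, 2 and 3.

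**Figure D1:**
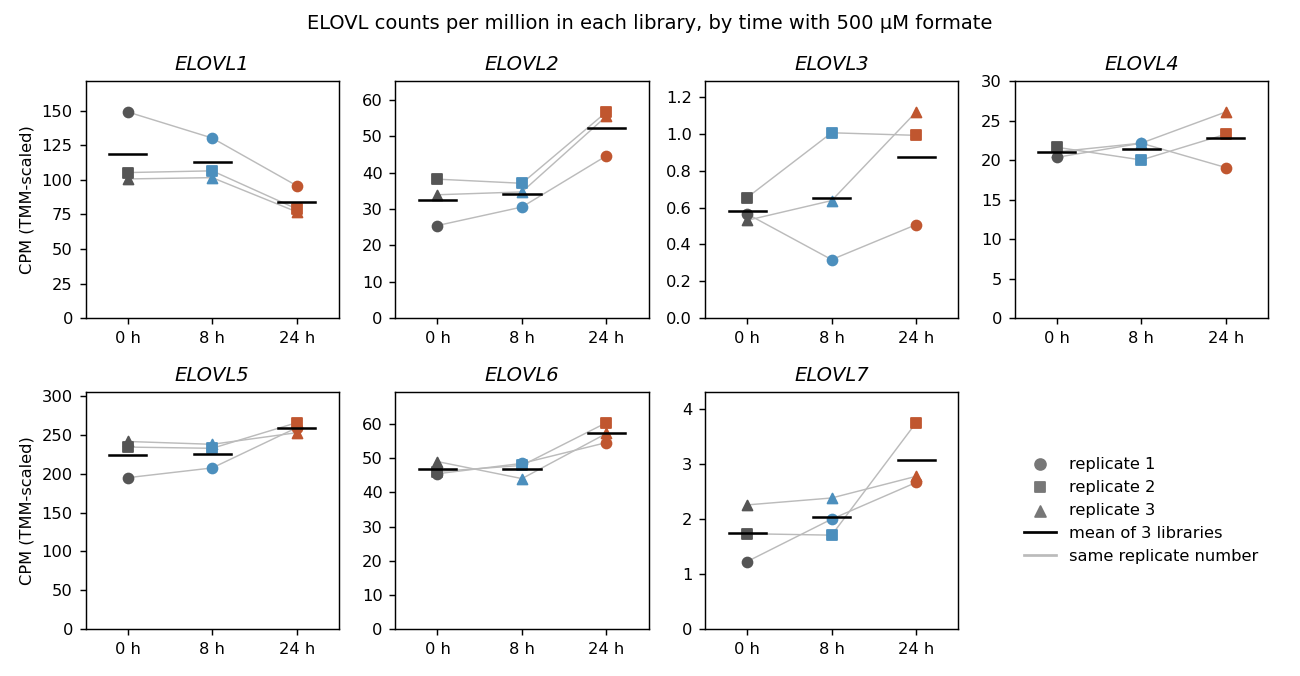
CPM of each elongase in each of the 9 libraries (vertical axis, from 0) at 0 h, 8 h and 24 h (horizontal axis), with a symbol for each replicate number, a black bar for the mean of 3 libraries and grey lines joining libraries of the same number. ELOVL2 at 24 h lies between 44.7 and 56.7 CPM, above all earlier libraries, while ELOVL1 at 24 h lies between 76.9 and 95.8 CPM, below all earlier libraries.

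Among the elongases of saturated and monounsaturated chains, ELOVL1 was lower and ELOVL6 and ELOVL7 were higher at 24 h, and each passed the edgeR test only when the replicate number was kept as a block. DESeq2 called all 3 without it, with adjusted p-values of 0.0421, 0.0300 and 0.0469. In this comparison DESeq2 also called more genes in all, 1656 of the 15273 tested, against 649 by edgeR without the block. ELOVL1 had 149, 105 and 101 CPM at 0 h and 130, 107 and 102 CPM at 8 h. At 24 h it had 95.8, 79.0 and 76.9 CPM. Replicate 1 was the highest of its group at all 3 times, and all 24 h libraries lay below all others. The means were 118 ± 26.7 CPM untreated and 83.9 ± 10.4 CPM after 24 h, a log2 fold change of -0.50 (SE 0.16) with an adjusted p of 0.0929 by edgeR. The blocked log2 fold change was -0.48, with an adjusted p of 0.00193, and it stayed under 0.05 in all 9 blocked fits that left out 1 library (0.000499 to 0.0134). Without replicate 1 of 0 h, the unblocked log2 fold change was -0.29 (adjusted p 0.220).

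ELOVL6, which supplies stearate, had 45.5, 46.1 and 49.0 CPM at 0 h, 48.5, 47.9 and 44.0 CPM at 8 h, and 54.6, 60.4 and 57.3 CPM at 24 h. The groups of 0 h and 24 h did not overlap. Its fitted change at 24 h was 0.29 on the log2 scale (SE 0.09), with an adjusted p of 0.0806 by edgeR and 0.0289 with the block. The blocked call was lost when replicate 2 of 0 h (adjusted p 0.151), of 8 h (0.0578) or of 24 h (0.122), or replicate 3 of 24 h (0.0868), was left out.

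ELOVL7 and ELOVL3 had the fewest counts of the family, 26 to 87 and 7 to 27 counts per library. ELOVL7 had 1.22, 1.73 and 2.25 CPM at 0 h, 2.00, 1.70 and 2.38 CPM at 8 h, and 2.66, 3.75 and 2.77 CPM at 24 h. The log2 fold change of ELOVL7 at 24 h, 0.81 (SE 0.26), was the largest of the 7, with an adjusted p of 0.0865 by edgeR and 0.0233 with the block. That blocked call was lost when replicate 1 (adjusted p 0.0583) or 2 (0.0892) of 0 h, or replicate 1 (0.0669) or 2 (0.135) of 24 h, was left out. ELOVL3, known from skin and brown fat, had 0.565, 0.654 and 0.531 CPM at 0 h, 0.318, 1.01 and 0.638 CPM at 8 h, and 0.507, 0.991 and 1.12 CPM at 24 h. The groups overlapped, and the fitted change of 0.57 had an SE of 0.41 (adjusted p 0.386 by edgeR, 0.213 with the block), so no difference was detectable in ELOVL3 at this depth.

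ELOVL4, the elongase of ultra-long chains, had 20.4, 21.6 and 21.0 CPM at 0 h, 22.1, 20.0 and 22.1 CPM at 8 h, and 19.1, 23.3 and 26.1 CPM at 24 h. The spread was widest at 24 h and enclosed both earlier groups. The log2 fold change at 24 h was 0.12 (SE 0.12), with an adjusted p of 0.548 by edgeR and 0.476 with the block.

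For the family as a whole, 1 of 7 members (ELOVL2, higher) passed at 24 h against 0 h by edgeR's adjusted p, where 4.25% of the 15273 tested genes passed (2.47% higher and 1.77% lower). With the replicate block, 4 of 7 passed, ELOVL2, ELOVL6 and ELOVL7 higher and ELOVL1 lower, where 24.1% of tested genes passed (12.6% higher and 11.6% lower). The blocked count dropped to 2 when replicate 2 of either 0 h or 24 h was left out. In 5 of the 7 the libraries of 0 h and 24 h kept apart, 4 higher and 1 lower, where this held for 30.2% of tested genes (15.8% higher and 14.4% lower). An unadjusted p under 0.05 was reached by 4 of 7, against 26.4% of tested genes. The median log2 fold change was 0.29 over the 7 elongases and 0.01 over all tested genes.

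**Figure D2:**
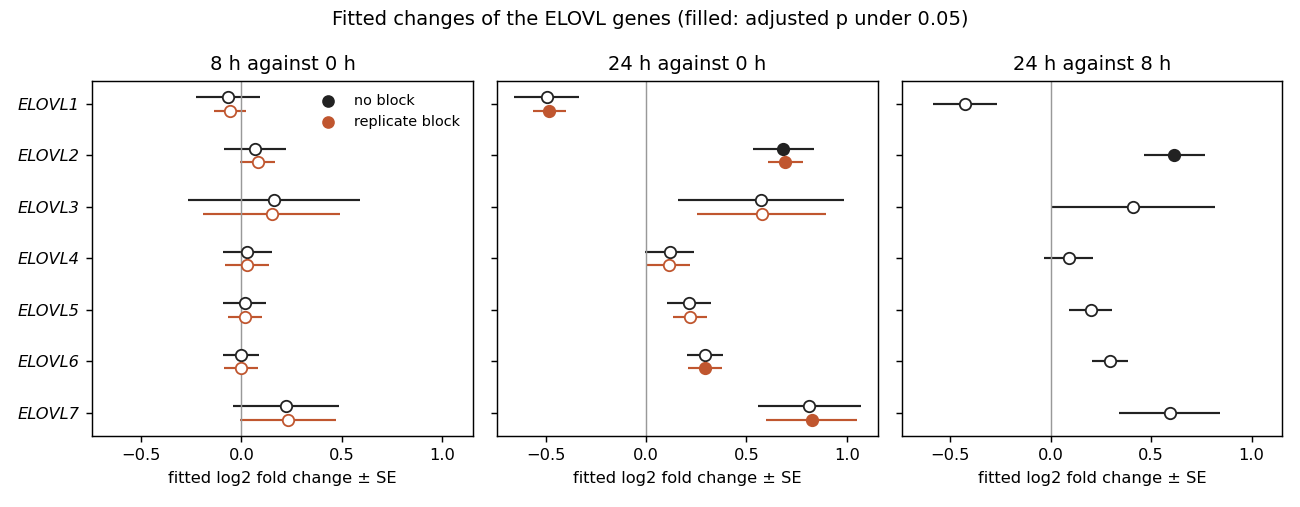
Fitted log2 fold changes of the 7 elongases (horizontal axis) with their standard errors (bars) for 8 h against 0 h, 24 h against 0 h and 24 h against 8 h. Values without the replicate block are black and, for the comparisons with 0 h, values with it are orange. Filled points have an adjusted p under 0.05. At 24 h against 0 h the unblocked values run from -0.50 for ELOVL1 to 0.81 for ELOVL7, and only ELOVL2 is filled without the block.

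No change was detected after 8 h of formate. The 7 fitted log2 fold changes lay between -0.07 (ELOVL1, SE 0.16) and 0.22 (ELOVL7, SE 0.26), and the replicates of 0 h and 8 h overlapped in all 7, where 3.31% of tested genes did not overlap. By edgeR, 0 of the 7 passed and 0 had an unadjusted p under 0.05. The background was 0.0% of tested genes called and 0.517% (79 genes) with an unadjusted p under 0.05. Such a p was thus rare for any gene in this comparison, and 0 of 7 lies near that share. DESeq2, limma voom and the replicate block also called 0 of the 7. Within replicate numbers, the log2 differences between 8 h and 0 h spread most widely in ELOVL3, at -0.69, 0.56 and 0.23 for replicates 1, 2 and 3. Replicate 1 had the widest difference of the 3 in every elongase but ELOVL6, among them ELOVL7 (0.67), ELOVL2 (0.26) and ELOVL1 (-0.19). In ELOVL4 (0.12) and ELOVL5 (0.09) its difference was smaller.

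The comparison of 24 h with 8 h asks whether the differences had arisen in the later interval. Without the block, ELOVL2 passed here too, with a log2 fold change of 0.62 (SE 0.15, adjusted p 0.0458 by edgeR). The other 6 did not pass without the block, where 4.56% of tested genes passed (2.84% higher and 1.72% lower). Without replicate 3 of 0 h, the unblocked adjusted p of ELOVL2 was 0.0558. Without replicates 1, 2 or 3 of 8 h it was 0.224, 0.0729 and 0.114, and without replicate 2 or 3 of 24 h it was 0.188 and 0.217. It was 0.0544 with upper-quartile scaling and 0.0538 with the filter of 1 CPM in 3 libraries. The unblocked values of the other members were -0.43 for ELOVL1 (adjusted p 0.141), 0.30 for ELOVL6 (0.0814), 0.59 for ELOVL7 (0.191), 0.20 for ELOVL5 (0.299), 0.41 for ELOVL3 (0.578) and 0.09 for ELOVL4 (0.692). With the replicate block, ELOVL2 (adjusted p 0.000815 by edgeR) and ELOVL6 (0.0313) passed as higher, and ELOVL1 (0.00413) as lower. The block called 3130 of 15273 tested genes here, 1799 higher and 1331 lower. When 1 library was left out, blocked ELOVL1 and ELOVL2 stayed under 0.05 in all 9 fits and ELOVL6 in 4. The replicate numbers did not pair every library of 8 h and 24 h. The libraries of 8 h and 24 h kept apart in 5 of 7, 4 higher and 1 lower, where this held for 34.3% of tested genes (18.2% higher and 16.2% lower), and 4 of 7 had an unadjusted p under 0.05, against 22.8%. This comparison and that of 24 h with 0 h share their 24 h libraries.

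The summed elongase level was close at the 3 times while its make-up differed. The 7 genes summed to 131, 127 and 127 FPKM in replicates 1, 2 and 3 at 0 h, 129, 127 and 126 at 8 h, and 132, 133 and 129 at 24 h. ELOVL2 and ELOVL5 together made up 44.0%, 55.8% and 56.8% of that sum in replicates 1, 2 and 3 at 0 h and 48.3%, 55.3% and 56.5% at 8 h. At 24 h they made up 60.0%, 63.1% and 62.3%, above every earlier library. ELOVL1, ELOVL3, ELOVL6 and ELOVL7 together held 50.8%, 38.6% and 37.7% at 0 h, 46.1%, 39.5% and 37.8% at 8 h, and 35.3%, 31.1% and 31.0% at 24 h. Of these, only ELOVL1 had a lower mean share at 24 h (25.5%) than at 0 h (36.8%). The mean share was higher at 24 h for ELOVL6 (5.02% at 0 h and 5.998% at 24 h) and ELOVL7 (0.297% and 0.509%). It was also higher for ELOVL3 (0.332% and 0.486%), whose libraries overlapped. ELOVL4 held a mean of 5.39% at 0 h, 5.54% at 8 h and 5.72% at 24 h. These classes were formed after the values had been seen and are given as a description without a test.

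**Figure D3:**
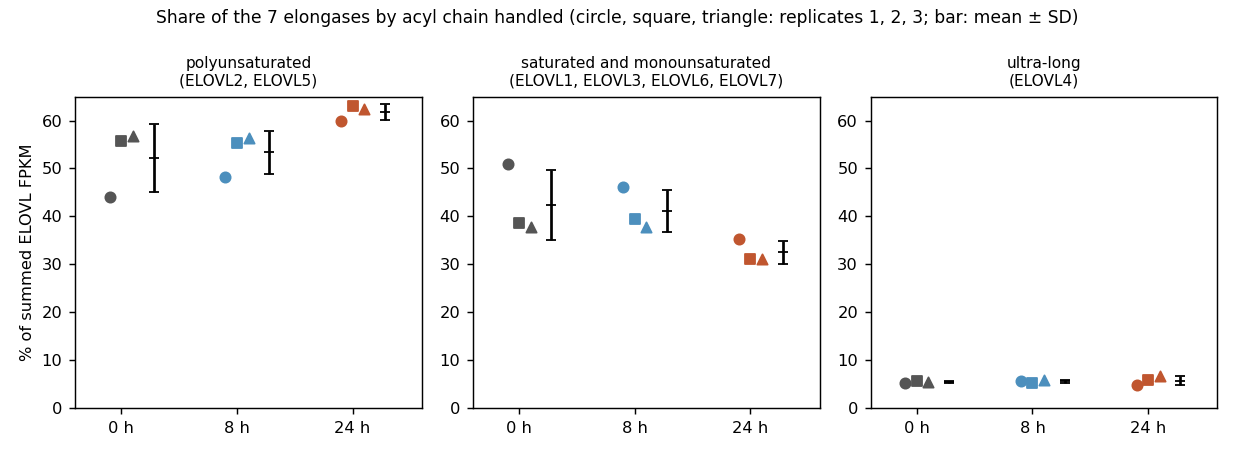
Share of the summed FPKM of the 7 elongases (vertical axis, percent) held by the elongases of polyunsaturated, of saturated and monounsaturated, and of ultra-long chains at 0 h, 8 h and 24 h, with 1 symbol per replicate and a bar for mean ± SD of 3 libraries. The polyunsaturated share at 24 h lies between 60.0% and 63.1%, and untreated replicate 1 is the lowest library at 44.0%.

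ELOVL1 and the polyunsaturated pair ran opposite to each other across the libraries. The ratio of ELOVL2 to ELOVL1 in FPKM was 0.107, 0.228 and 0.212 at 0 h, 0.147, 0.219 and 0.214 at 8 h, and 0.293, 0.450 and 0.454 at 24 h. The ratio of ELOVL5 to ELOVL1 was 0.860, 1.46 and 1.58 at 0 h, 1.05, 1.44 and 1.54 at 8 h, and 1.78, 2.21 and 2.16 at 24 h. With all annotated exons as the length, untreated replicate 1 was the single library in which ELOVL1 exceeded ELOVL5. The size of these ratios depends on the length used for each gene, while their relative change between libraries does not. Across the 9 libraries, the log2 CPM of ELOVL1 and ELOVL2 had a Pearson r of -0.954, and of -0.919 after group means were removed. For ELOVL1 and ELOVL5 these values were -0.944 and -0.879, and for ELOVL2 and ELOVL5 0.893 and 0.773. The 9 points share groups and replicate numbers, and the contrast between replicate 1 and the others enters both measures.

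The genes whose log2 CPM ran closest to each elongase over the 9 libraries were searched among 10839 genes of at least 5 CPM. For ELOVL1 they were TRMT61A (r = 0.999), DRAP1 (0.997) and EIF6 (0.997). For ELOVL2 they were MATCAP2 (0.992), SELENON (0.990) and GPR155 (0.990), and for ELOVL5 WDR72 (0.992), FBXO11 (0.984) and TMPRSS15 (0.983). ULK2 (0.977), ITIH6 (0.970) and C3orf70 (0.966) ran closest to ELOVL6, and TMEM33 (0.932), ZNF25 (0.910) and IL27RA (0.901) to ELOVL4. ELOVL3 and ELOVL7 lay under the level required. These are the highest values of a search over many genes in few libraries that share groups, and they are given as a description.

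ELOVL1 lies tail to tail with CDC20, an activator of the anaphase-promoting complex in mitosis, whose exons end 193 bases from those of ELOVL1 on the opposite strand (chromosome 1, 43358955 to 43363203). CDC20 had 603, 451 and 427 CPM at 0 h, 518, 459 and 419 CPM at 8 h, and 324, 251 and 221 CPM at 24 h. As in ELOVL1, replicate 1 was the highest of each group and the 24 h libraries were the lowest. CDC20 fell by 0.90 on the log2 scale at 24 h against 0 h (SE 0.17, adjusted p 0.0267 by edgeR). Its log2 CPM had an r of 0.946 with that of ELOVL1 over the 9 libraries, and of 0.942 after group means were removed. MED8, the neighbour on the other side of ELOVL1 at a distance of 15842 bases, had a log2 fold change of -0.29 (adjusted p 0.209 by edgeR, 0.0429 with the block). Its r with ELOVL1 was 0.924, and 0.967 after group means were removed, above that of CDC20. The contrast between replicate 1 and the others enters the r values of both neighbours. CDC20 and MED8 were singled out after their values had been seen.

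Of 12 listed genes of the G2 and M phases of the cell cycle, 7 fell at 24 h against 0 h by edgeR, CDC20 among them, where 1.77% of tested genes were called lower. The median log2 fold change over the 12 was -0.57. The other 5 (CDK1, AURKB, TOP2A, MKI67 and CENPF) did not pass without the block, with log2 fold changes from -0.46 for AURKB to -0.17 for MKI67. With the replicate block 9 of the 12 were called lower, where 11.6% of tested genes were. CDK1 (adjusted p 0.0242 by edgeR) and AURKB (0.0147) passed only with it. The summed level of the 12 was 5706 to 6106 CPM at 0 h, 5509 to 6680 at 8 h and 3387 to 5005 at 24 h. Single markers from the lists of other cell types rose at 24 h as well, while others of the same lists did not pass. SNAP25 of neurons (log2 fold change 1.09, adjusted p 0.0356) and VWF of endothelium (1.60, adjusted p 0.0304) passed by edgeR. SYT1, the other neuronal marker tested, had means of 37.1 CPM at 0 h and 32.9 CPM at 24 h (log2 fold change -0.18, adjusted p 0.402 by edgeR), and the untested STMN2 was at 0.0965 and 0.0707 CPM. Among the oligodendrocyte markers given here, MOG had a log2 fold change of 0.58 (adjusted p 0.305 by edgeR), and the untested MBP, a myelin protein, was at 0.118, 0.174 and 0.490 CPM at 0 h, 8 h and 24 h. From the glioma and astrocyte list, S100B had means of 130, 122 and 339 CPM at 0 h, 8 h and 24 h (log2 fold change 1.38, adjusted p 0.0460 by edgeR). The other 5 tested genes of that list did not pass without the block, with log2 fold changes from -0.46 for VIM to 0.34 for SOX9. With the block, VIM (adjusted p 0.00858 by edgeR) and CD44 (0.00690) passed as lower. The 3 of 4 neuronal markers in the table summed to 38.9 to 54.4 CPM at 0 h, 46.2 to 51.9 at 8 h and 54.3 to 59.2 at 24 h, and the 2 of 4 endothelial ones to 0.308 to 0.612, 0.318 to 0.656 and 1.03 to 1.70 CPM. The mitochondrial share of counts was 0.865% to 1.38% at 0 h, 0.725% to 1.43% at 8 h and 1.56% to 1.81% at 24 h. Without replicate 2 or replicate 3 of 24 h, 0 of the tested genes passed by edgeR, these included, with 2527 and 2545 at an unadjusted p under 0.05, and 2519 and 2488 passed with the block. The part of any of these in the elongase values was not tested.

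**Figure D4:**
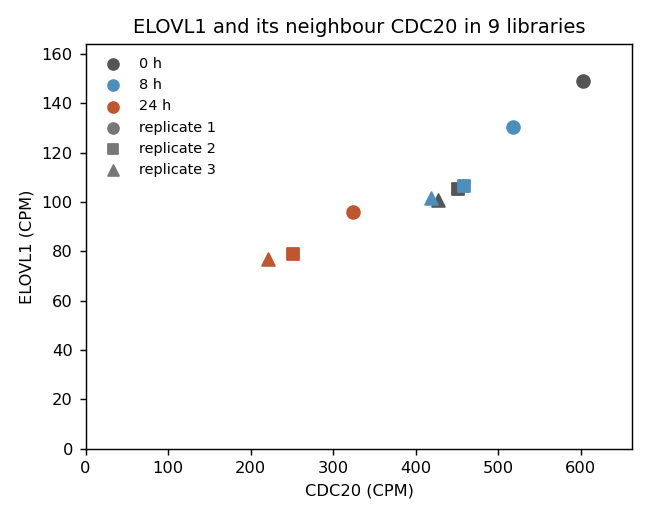
CPM of ELOVL1 (vertical axis) against CPM of its genomic neighbour CDC20 (horizontal axis) in the 9 libraries, coloured by time and with a symbol per replicate number; both axes start at 0. The 24 h libraries lie lowest on both axes (76.9 to 95.8 CPM of ELOVL1 and 221 to 324 CPM of CDC20), and untreated replicate 1 lies highest on both.

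The enzymes that complete the elongation cycle did not pass the test at 24 h against 0 h in either direction. Of 7 listed, 5 were tested and 0 passed at 24 h against 0 h, with 0 at an unadjusted p under 0.05 by edgeR and 0 by DESeq2, limma voom or the replicate block. Of all tested genes, 4.25% passed by edgeR and 24.1% with the block, and 26.4% had an unadjusted p under 0.05 by edgeR. With 5 genes, 0 calls by edgeR lies near the share of 4.25%. HSD17B12, the ketoreductase, averaged 40.2 ± 1.55 CPM at 0 h and 42.1 ± 0.939 CPM at 24 h (log2 fold change 0.07). TECR, the final reductase, averaged 88.8 ± 10.8 and 88.4 ± 1.95 CPM (log2 fold change -0.01). Of the dehydratases, HACD1 had a log2 fold change of 0.17, HACD2 of -0.28 (adjusted p 0.192 by edgeR) and HACD3 of -0.15. HACD4 and TECRL were not among the tested genes. The median over the 5 was -0.01, against 0.01 over all tested genes.

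Of the 5 acyl-CoA desaturases, which place the double bonds in the chains that elongases extend, 4 rose at 24 h against 0 h, where 2.47% of tested genes were called higher, and the median log2 fold change over the 5 was 0.62. FADS1, whose product acts after ELOVL5 in polyunsaturated synthesis, averaged 158 ± 9.77 CPM at 0 h and 229.7 ± 2.12 CPM at 24 h (log2 fold change 0.54, adjusted p 0.0199 by edgeR). FADS2 (1.54, adjusted p 0.0108) and SCD (1.70, adjusted p 0.0167) had larger fitted rises, and part of the SCD counts is uncertain because a pseudogene copy exists. The fourth was SCD5 (0.62, adjusted p 0.0396), named after its values were seen, and FADS3 had a value of 0.03.

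Enzymes that supply malonyl-CoA and palmitate had 3 of 6 members called higher, where 2.47% of tested genes were, with a median log2 fold change of 0.59 over the 6: FASN, the fatty acid synthase (log2 fold change 0.87, adjusted p 0.0167 by edgeR), ACACA, which makes malonyl-CoA (0.77, adjusted p 0.0199), and ACSS2, which activates acetate (0.84, adjusted p 0.0353). With the replicate block 5 of the 6 were called higher, where 12.6% of tested genes were. Among 10 tested regulators of lipid synthesis, 3 rose, against 2.47% of tested genes: SREBF2 (log2 fold change 1.08, adjusted p 0.0167 by edgeR), INSIG1 (1.71, adjusted p 0.0202) and SREBF1, whose means were 73.4 ± 18.8 CPM at 0 h and 147 ± 7.24 CPM at 24 h (adjusted p 0.0311), with a median over the 10 of 0.06.

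Ceramide synthases, which join the products of elongation to sphingoid bases, did not share a direction. CERS4 rose from a mean of 4.04 ± 1.03 CPM at 0 h to 9.28 ± 2.31 CPM at 24 h, by 1.19 on the log2 scale (adjusted p 0.0350 by edgeR). CERS2, which uses the very long chains that ELOVL1 makes, averaged 334 ± 42.3 and 259 ± 14.5 CPM, a log2 fold change of -0.37 with an adjusted p of 0.101 by edgeR and 0.00773 with the block. CERS1 had a log2 fold change of 0.82 (adjusted p 0.141). The median over the 5 tested was 0.14. Peroxisomal genes for the breakdown of very long chains had 0 of 10 called at 24 h against 0 h by edgeR, DESeq2, limma voom or the block. In that comparison they had 0 at an unadjusted p under 0.05 by edgeR and a median of 0.18. Of all tested genes, 4.25% were called by edgeR and 24.1% with the block, and 26.4% had an unadjusted p under 0.05 by edgeR. With 10 genes, 0 calls by edgeR lies near the share of 4.25%. The smallest p-values among the 10 peroxisomal genes belonged to SCP2, HSD17B4 and ACOX2, with log2 fold changes of 0.23, 0.21 and -0.24.

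Without the block, each of the 10 named calls in these lists was lost when replicate 2 or replicate 3 of 24 h was left out. Without replicate 2 of 24 h, the adjusted p by edgeR was 0.0938 for FADS2, 0.103 for SCD and FASN, 0.107 for FADS1, ACACA and INSIG1, 0.103 for SREBF2, 0.129 for SREBF1, 0.139 for CERS4 and 0.151 for ACSS2. Without replicate 3 of 24 h, these 10 values ran from 0.0975 for FADS2 to 0.176 for ACSS2. ACSS2 also lost its call without any 1 of the 3 libraries of 0 h or replicate 3 of 8 h (0.0508 to 0.0715), and CERS4 without replicate 1 or 3 of 0 h or replicate 3 of 8 h (0.0559 to 0.0738). In the fit of only the 6 libraries compared, 3 of the 10 calls were lost, with adjusted p-values of 0.0513 for FADS1, 0.0500144 for ACSS2 and 0.0519 for CERS4. With the block, all 10 stayed under 0.05 in the 9 fits that each left out 1 library. At 8 h against 0 h, 0 members of these 6 lists passed by edgeR, DESeq2 or limma voom, and 0 had an unadjusted p under 0.05 by edgeR. Over all tested genes at 8 h, edgeR called 0.0% and gave 0.517% an unadjusted p under 0.05.

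**Figure D5:**
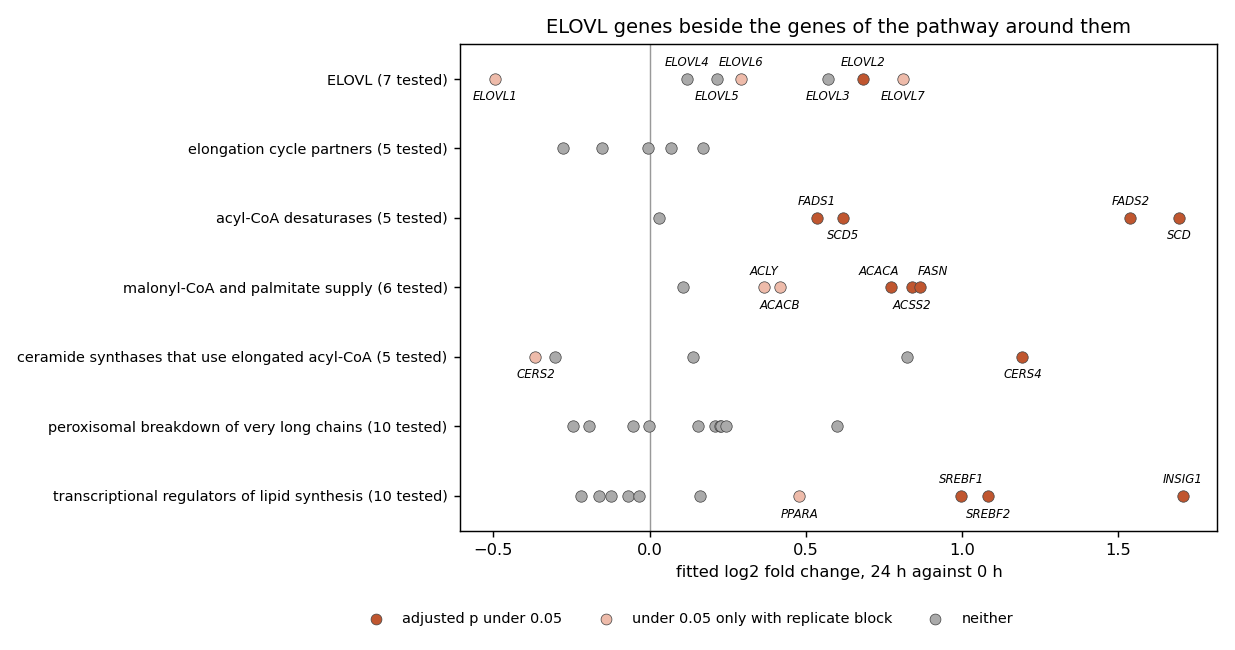
Fitted log2 fold changes at 24 h against 0 h (horizontal axis) of the elongases and of 6 lists of genes around them (1 row per list, 1 point per tested gene), dark orange for an adjusted p under 0.05, pale orange for under 0.05 only with the replicate block, grey for neither. The 5 elongation partners lie between -0.28 and 0.17, while 4 of the 5 desaturases lie between 0.54 and 1.70.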

How the data were processed

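The mRNA of 9 LN229 libraries was sequenced with a stranded kit, from RNA with an integrity number above 9, per the labels' protocols. The authors deposited 1 table of raw counts per gene. The submitters' processing notes name bcl2fastq 2.20.0.422, STAR 2.7.4a and GRCh38; the counting program, annotation release and strand setting are not given in the sources used here. Total counts ranged from 22222298 to 25848242, and no column was left unmapped.

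From these counts, filterByExpr kept 15273 of 23727 genes and TMM scaled the libraries. The edgeR 4.0.16 quasi-likelihood test (R 4.3.3) fitted 1 mean per group over all 9 libraries, two-sided, with Benjamini-Hochberg adjustment over all tested genes and a threshold of 0.05. It was also run on simulated counts that held no differences between replicate numbers. That run does not bear on the spread between replicate numbers in these libraries. Coordinates and exon lengths came from GENCODE release 29, which held 23252 of the genes. Log2 CPM used a prior count of 2. The members and lists were chosen with earlier results of these data known. A marker gene, and the summed level that includes it, are not reported here. Genes named were all elongases and their cycle partners, from every other list the 3 members of lowest p (24 h against 0 h), and the 3 genes most correlated with each elongase of at least 5 CPM.

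The replicate numbers in the titles were checked for pairing by correlating, over genes, the deviations of libraries from their group means. For equal numbers this gave 0.476, 0.432 and 0.415 (0 h with 8 h), 0.367, 0.164 and 0.251 (0 h with 24 h), and 0.423, 0.0367 and 0.404 (8 h with 24 h). For unequal numbers the values ran from -0.364 to 0.0108, from -0.401 to 0.270 and from -0.440 to 0.134. The 0.270 belonged to replicate 3 of 0 h with replicate 2 of 24 h, above the equal-number values of replicates 2 and 3. The numbers therefore did not pair every library of 0 h and 24 h. Blocked values or calls are given beside the unblocked ones for the elongases, and for other genes only where stated. Alternatives were RLE and upper-quartile scaling, 2 other filters, DESeq2 1.42.0, limma voom 3.58.1, only the 6 libraries compared, the replicate block, each library left out and, added after seeing the data, the longest coding transcript as length.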

Additional observations from a re-analysis of the deposited data

Results flagged for a closer look

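The difference of ELOVL2 between 24 h and 8 h, a log2 value of 0.62, was singled out because its change from 0 h differed between the 2 exposure times by a test of the difference itself (edgeR, adjusted p 0.0458, higher in 3 of 3 libraries of 24 h). The adjusted p was above 0.05 in 6 of the 9 fits that each left out 1 library (all 9 ran from 0.00633 to 0.224), with upper-quartile scaling (0.0544) and with the filter of 1 CPM (0.0538), and it was under 0.05 in the other 6 alternatives.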

How the results depend on the processing

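At 24 h against 0 h, 4 elongases and 1656 genes passed by DESeq2, 0 and 122 with only the 6 libraries compared, and 4 and 3687 with the replicate block. At 24 h against 8 h, the numbers also did not pair every library. There the block gave 3 and 3130, DESeq2 2 and 1486, and the 6 libraries 3 and 1793. Upper-quartile scaling and the filter of 1 CPM gave 0 elongases each, ELOVL2 having lost its call. Leaving out 1 library gave 0 to 1 elongases and 0 to 881 genes at 24 h against 0 h (with the block 2 to 4 and 2169 to 3796), and 0 to 3 and 0 to 2528 at 24 h against 8 h (with the block 2 to 5 and 1161 to 5306). Ordering the elongases by CPM kept 2 of 7 places, and by the longest transcript 3 of 7. Other alternatives gave counts within 1.5 times those reported, and no gene passed at 8 h under any.

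Values that changed sign were not called. ELOVL6 at 8 h against 0 h (-0.00158 on the log2 scale) gave 0.00456 with RLE, 0.00232 with upper-quartile scaling, 0.00249 without filter, 0.00443 with the filter of 1 CPM, 0.00440 with DESeq2 and 0.00462 with the 6 libraries. TECR at 24 h (-0.00631) gave 0.0127 with upper-quartile scaling and 8.22e-05 with limma voom. Leaving out 1 library, blocked or not, gave at 8 h -0.17 to 0.13 for ELOVL1, -0.0795 to 0.20 for ELOVL2, -0.28 to 0.49 for ELOVL3, -0.0658 to 0.0968 for ELOVL4, -0.0725 to 0.0830 for ELOVL5 and -0.0524 to 0.0699 for ELOVL6. It gave -0.0311 to 0.20 for ELOVL4 at 24 h against 8 h and, at 24 h against 0 h, -0.10 to 0.38 for HACD1 and -0.0741 to 0.10 for TECR. The cause of these shifts was not tested. Counts of 7 to 87 per library limit ELOVL3 and ELOVL7.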
